A study of Rattus norvegicus with 8 samples.

Results

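The synaptonemal complex is the protein zipper that joins paired homologous chromosomes in meiotic prophase, and cohesin is the ring that holds sister chromatids together and forms the base of the chromosome axis on which the complex is built. Transcripts of 9 genes for their meiosis-specific parts were followed: Sycp2, Sycp3 and Hormad1 of the chromosome axis, Sycp1, Syce1 and Syce2 of the transverse filament and central element, and the cohesin subunits Smc1b, Rec8 and Stag3. They were chosen by name and found by matching gene symbols in a table of RNA-seq read counts, where all 9 were present among 16764 genes and all 9 passed the low-count filter that left 12210 genes for testing.

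RNA was measured in 3 groups of rat germ cells of the Brown Norway strain, with 2 libraries in each group. Undifferentiated spermatogonia (USg) were a germline cell line expanded in SG medium and not exposed to SD medium (0 h), with RNA taken before plating on laminin per the protocol. Differentiating spermatogonia (DSg) were the same line 7 days after plating on laminin, the last 5 days (120 h) in SD medium, a medium with neuregulin-1 and all-trans retinoic acid. Spermatocyte-enriched cells (Spc) were primary testis germ cells labelled as enriched primary spermatocytes, which were kept for 2.5 days in DMEM and Ham's F12 with 10% FBS and selected by their failure to bind to plastic, collagen-I or laminin. The labels name no transgene or edited allele. Both line groups come from 1 line and Spc from primary cells in another medium, so for the difference between Spc and the line, stage, source, selection and medium cannot be told apart. For DSg against USg, time in culture, laminin and medium cannot be told apart either, and titles of both groups carry the same 120 h tag although the protocol places USg at day 0. The labels speak of replicate cultures without naming separate animals, so p-values measure the spread between these libraries, which may be technical.

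In rodent testis, retinoic acid sets spermatogonia on the path to meiosis, and the axis, the transverse filament and meiotic cohesin assemble as cells become primary spermatocytes. Meiotic cohesin exchanges subunits of the mitotic ring for meiotic relatives: SMC1B for SMC1A, the kleisin REC8 for RAD21, and STAG3 for STAG1 or STAG2, while SMC3 is common to both. SYCP2 and SYCP3 coat the cohesin-based axis, HORMAD1 marks axes that are not yet paired, SYCP1 spans the gap between the paired axes, and SYCE1 and SYCE2 lie in the middle of that gap.

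Levels are given as CPM, a gene's read count relative to its library's total after TMM scaling between libraries, and p-values are from edgeR's quasi-likelihood test, adjusted over all genes tested. Total counts were between 2657291 and 5697165 per library. Ribosomal RNA genes took 12.4% of counts in DSg 1 and 7.81% in USg 1, and 0.00377% to 0.735% in the other 4 libraries. In DSg 2, 96.7% of 1044 olfactory receptor genes had a count, at a mean of 1.31 CPM per gene, against 0.128 to 0.293 CPM in the other 5 libraries. The log2 difference between replicates over the 12210 genes had an SD of 0.89 in USg, 0.84 in DSg and 0.39 in Spc, and the fit pooled 1 estimate of the spread over the 3 groups. The 6 spermatocyte markers outside the 9 genes (Spo11, Dmc1, Meiob, Piwil1, Ldhc and Tex101) summed to 1625 and 1655 CPM in Spc, against 239.6 and 159.4 CPM in DSg and 191 and 172 CPM in USg. All 6 were called higher in Spc than in USg and in DSg (edgeR adjusted p under 0.05), where 17.9% and 14.8% of all genes were. Of the 6 spermatid markers, Prm1, Prm2, Tnp2 and Acrv1 were each at 0 or 1 count in both Spc libraries. Tnp1 had 5 and 2 counts there and Spaca1 had 50 and 50. All 6 summed to 11.4 and 11.8 CPM in Spc, against 59.0 and 28.3 CPM in DSg and 54.0 and 62.0 CPM in USg. In every library most of the sum came from Spaca1. The 8 markers of undifferentiated spermatogonia summed to 207 and 184 CPM in Spc, 296 and 300.2 CPM in DSg and 1684 and 1972 CPM in USg. Of these, 7 were lower in Spc than in USg, where 16.6% of all genes were called lower. Id4 was higher, as 17.9% of all genes were (log2 fold change 1.42 ± 0.33, edgeR adjusted p = 0.0111), and held 139.7 and 118 CPM of the sums in Spc. Of the 4 markers of differentiating spermatogonia, Kit, the stem cell factor receptor, was called higher in DSg than in USg, as 0.565% of all genes were. Kit had 597 and 562 CPM in DSg against 86.1 and 63.2 CPM in USg. The other 3 did not pass: Sohlh2 had 235 and 263 CPM in DSg against 84.9 and 116 CPM in USg, Sohlh1 had 54.1 and 79.4 CPM in DSg against 43.2 and 147 CPM in USg, and Dmrtb1 had 3.64 and 10.2 CPM in DSg against 3.09 and 5.52 CPM in USg.

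All 9 genes were higher in Spc than in USg, with log2 fold changes of 0.99 (Syce1) to 4.10 (Sycp2, 4.86 without USg 1) and an edgeR adjusted p under 0.05 for each. Over all tested genes, 17.9% were called higher in that comparison. In Spc against DSg, 7 of the 9 rose and Sycp1 and Rec8 did not pass the threshold, where 14.8% of all genes were called higher. In DSg against USg, Rec8 alone rose and the other 8 did not pass the threshold, against a background of 0.565% of genes called higher and 1.92% called lower. The median log2 fold change of the 9 genes was 2.27 in Spc against USg, 1.88 in Spc against DSg and 0.30 in DSg against USg, beside medians over all genes of -0.04, -0.03 and 0.01. Library by library, each of the 9 genes was higher in both Spc libraries than in every line library. Taken for each pair of groups alone, separation with Spc higher was found for 37.1% of all genes against USg and for 36.6% against DSg. The share of genes separated from both line groups at once was not counted. The 9 genes together held 9111 and 10052 CPM in Spc, against 2171 and 1388 CPM in DSg and 2139 and 1399.7 CPM in USg. In bulk RNA, a smaller share of cells that transcribe these genes and less of their RNA per cell cannot be told apart.

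Genes of testis somatic cells were also higher in Spc, and their part in these differences was not tested. Their calls against USg stand beside 17.9% of all genes called higher and 16.6% called lower. All 5 peritubular myoid markers were called higher in Spc than in USg and summed to 462 and 490.3 CPM in Spc, against 42.1 to 58.6 CPM in the 4 line libraries. The same held for 3 of 4 fibroblast markers, with sums of 2422 and 2265 CPM in Spc and 195 to 486 CPM in the line. Of 6 tested Sertoli markers 4 were higher in Spc than in USg, with sums over 8 genes of 1314 and 1066 CPM in Spc and 206 to 451 CPM in the line, mostly from Clu. Of the Leydig markers only Star was high, at 159 and 169 CPM in Spc, while Insl3 had 1 count in Spc 1 and none in Spc 2. Macrophage markers summed to 58.1 and 77.9 CPM in Spc and to 5.66 to 29.9 CPM in the line, and 3 of the 4 tested were higher in Spc than in USg. The 3 endothelial markers summed to 22.7 and 28.5 CPM in Spc and to 45.3 to 170 CPM in the line, but they did not go the same way. Against USg, Pecam1 and Kdr were called lower in Spc, and Cdh5 was called higher (log2 fold change 3.16, edgeR adjusted p = 0.0483).

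**Figure D1:**
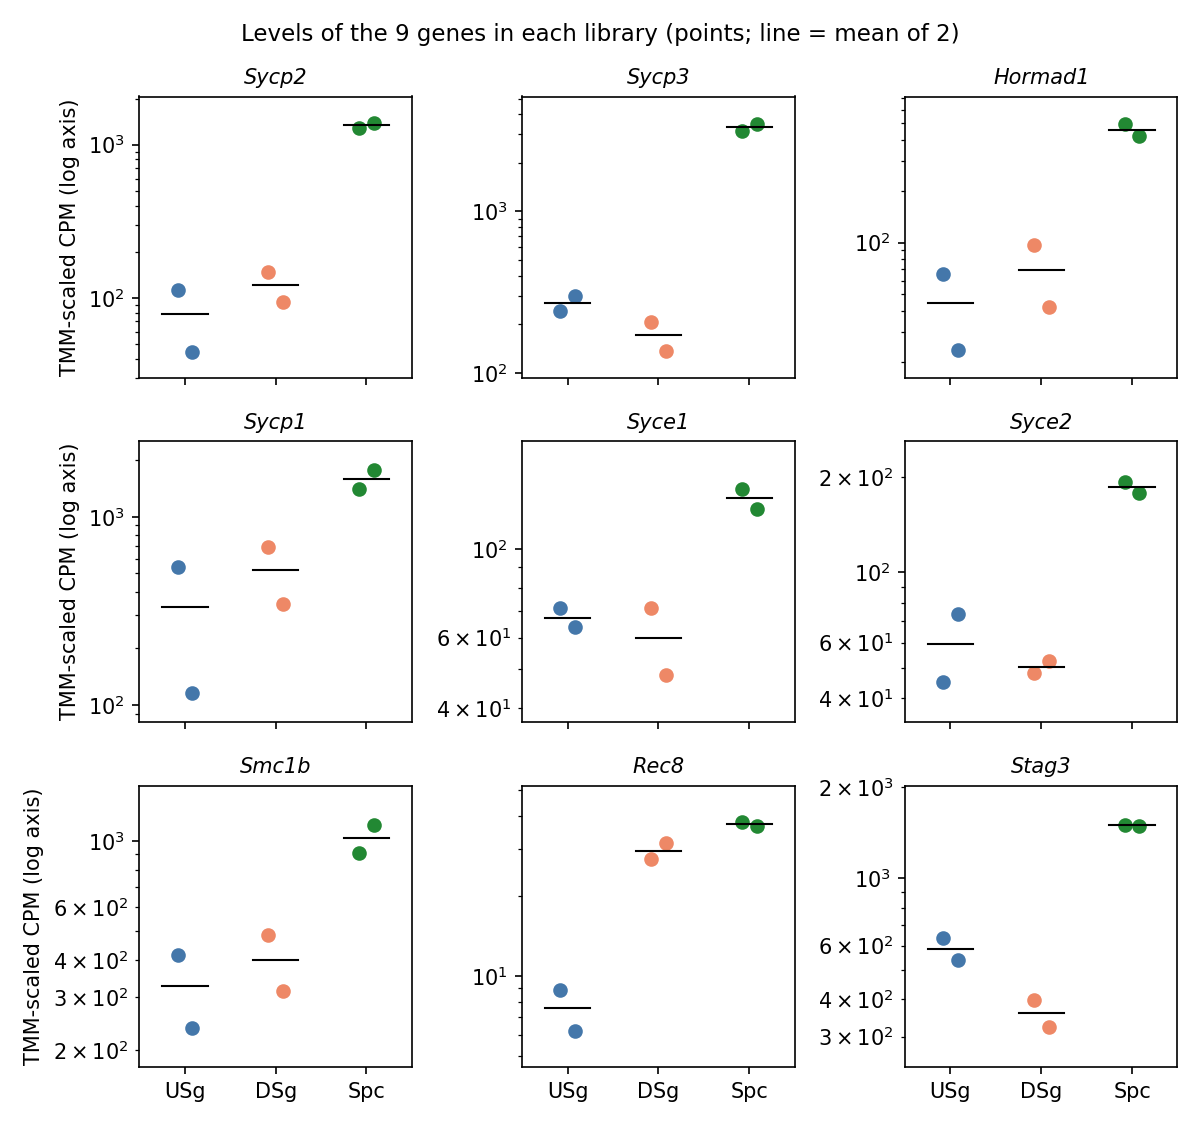
Level of each of the 9 genes in every library, in TMM-scaled CPM (log axis, scaled for each gene), in the order USg, DSg, Spc, with points for libraries and a line for the mean of 2. In each panel both Spc points lie above all 4 line points, and the DSg points of Rec8 lie near those of Spc.

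The stretches of 140 bases just before the annotated start are shown for the 7 genes with a sequence at hand because 4 of them share a short site, Sycp3 has a different site at 2 places, and Sycp1 and Rec8 have neither in this stretch. Capitals mark GCGGGAA or its reverse complement TTCCCGC, an E2F6-type site, and CACGTG, the E-box. In mouse cells, E2F6 and the pair of MGA with MAX, members of a Polycomb complex that represses meiotic genes, bind these kinds of site. The sequences are RefSeq's for the rat assembly GRCr8, each written 5′ to 3′ along the gene's own strand, and the build behind the counts may differ.
Hormad1, chr2:185805532-185805671, plus strand: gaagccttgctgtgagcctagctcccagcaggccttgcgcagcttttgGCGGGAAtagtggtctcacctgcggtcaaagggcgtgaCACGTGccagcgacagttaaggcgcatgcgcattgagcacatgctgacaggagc
Sycp2, chr3:185876493-185876632, minus strand: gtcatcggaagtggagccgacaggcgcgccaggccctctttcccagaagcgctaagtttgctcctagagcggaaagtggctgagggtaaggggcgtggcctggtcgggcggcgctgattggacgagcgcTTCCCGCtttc
Smc1b, chr7:118122649-118122788, minus strand: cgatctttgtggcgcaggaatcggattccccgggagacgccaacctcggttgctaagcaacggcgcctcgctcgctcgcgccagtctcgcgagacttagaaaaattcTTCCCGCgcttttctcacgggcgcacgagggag
Stag3, chr12:22398268-22398407, plus strand: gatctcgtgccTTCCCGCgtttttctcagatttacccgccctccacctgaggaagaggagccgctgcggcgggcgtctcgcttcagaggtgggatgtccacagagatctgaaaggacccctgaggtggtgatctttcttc
Sycp3, chr7:24761336-24761475, plus strand: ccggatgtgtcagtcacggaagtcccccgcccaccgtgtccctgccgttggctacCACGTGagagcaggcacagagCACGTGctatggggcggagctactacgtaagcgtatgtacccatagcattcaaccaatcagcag
Sycp1, chr2:193145181-193145320, minus strand: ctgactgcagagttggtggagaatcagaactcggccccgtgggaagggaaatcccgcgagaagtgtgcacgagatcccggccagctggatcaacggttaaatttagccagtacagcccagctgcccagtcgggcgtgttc
Rec8, chr15:33079678-33079817, plus strand: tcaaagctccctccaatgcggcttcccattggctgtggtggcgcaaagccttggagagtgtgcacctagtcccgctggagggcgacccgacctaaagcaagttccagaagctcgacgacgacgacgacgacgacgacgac

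Windows from 250 bases before to 50 after the start were at hand for 7 of the 9 genes, without Syce1 and Syce2. On either strand, GCGGGAA was found in 4 of the 7 (Hormad1, Sycp2, Smc1b and Stag3) and in 4.47% of 27457 windows of the same length. CACGTG was found in 2 of the 7, once in Hormad1 and at 2 places in Sycp3, and in 6.65% of all windows. CNCCTCAG, a site described for the retinoic acid-induced meiotic factor STRA8 in mouse, was found in Sycp1, Sycp2 and Stag3 and in 8.82% of windows, and it does not overlap the other sites. The 2 half-sites of a DR5 retinoic acid response element were in none of the 7 windows and in 0.375% of all. A match describes the letters of a window only, and binding was not measured at these genes. None of the 9 genes lies on chromosome X or Y.

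**Figure D2:**
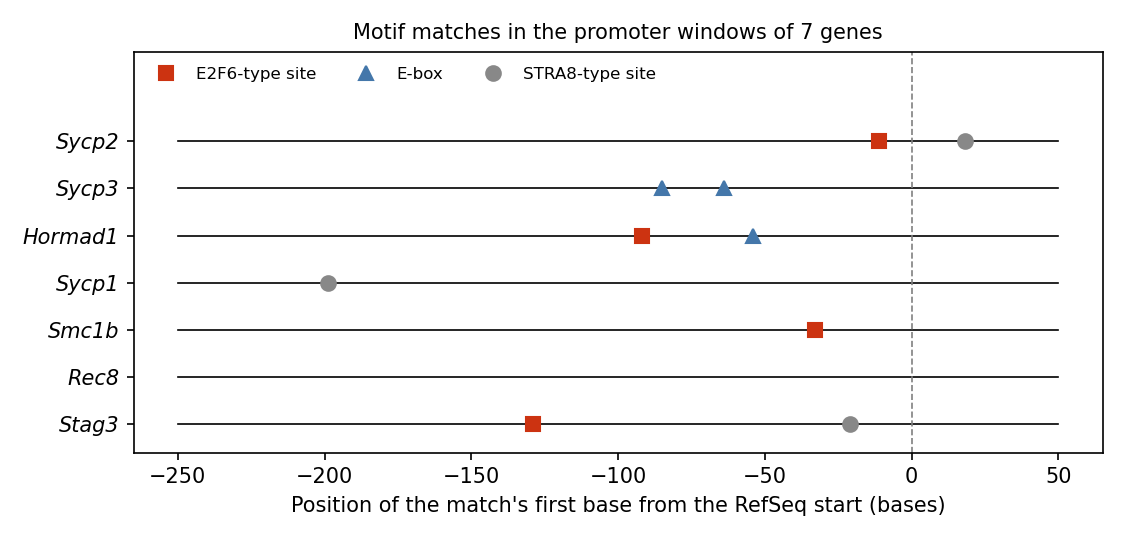
Positions of motif matches in the promoter windows of 7 genes (x axis: bases from the annotated start, dashed line; squares E2F6-type sites, triangles E-boxes, circles STRA8-type sites). The E2F6-type site lies 11 to 129 bases before the start in 4 genes, and the Rec8 window has no match.

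Among the axis genes, Sycp2 and Sycp3 encode the paired coat proteins of the axis. They had the steepest differences of the 9 genes between Spc and each line group in the fit of all 6 libraries. Without USg 1, the Spc against USg value of Hormad1 was 4.24, above that of Sycp3, which was at most 3.80 with 1 library left out. Sycp2 stood at 112 and 44.5 CPM in USg, 147 and 93.4 CPM in DSg, and 1281 and 1389 CPM in Spc. Both Spc libraries lay far above every line library, and the USg and DSg libraries overlapped. The log2 fold change was 4.10 ± 0.50 (SE) in Spc against USg (edgeR adjusted p = 5.47e-04) and 3.47 ± 0.48 in Spc against DSg (adjusted p = 0.00149). In DSg against USg it was 0.63 ± 0.45 (adjusted p = 0.478). Without USg 1 the Spc against USg value was 4.86, and with 1 library left out the DSg against USg value ran from 0.06 to 1.32.

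Sycp3 stood at 242 and 299 CPM in USg, 206 and 137 CPM in DSg, and 3154 and 3509 CPM in Spc. Both DSg libraries were below both USg libraries, a separation in the lower direction that 21.1% of all genes also showed, and both Spc libraries were far above. The log2 fold change was 4.28 ± 0.38 in Spc against DSg (edgeR adjusted p = 2.55e-04) and 3.62 ± 0.36 in Spc against USg (adjusted p = 2.75e-04). In DSg against USg it was -0.66 ± 0.33 and did not pass the threshold (adjusted p = 0.314). Sycp3 made up 34.6% and 34.9% of the counts of the 9 genes in Spc, against 9.49% and 9.86% in DSg and 11.3% and 21.4% in USg.

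Hormad1, which encodes an axis protein that promotes double-strand break formation and monitors pairing, stood at 65.2 and 23.5 CPM in USg, 97.0 and 42.3 CPM in DSg, and 494 and 424 CPM in Spc. The line groups overlapped, and both Spc libraries lay well above the highest line library, DSg 1. The log2 fold change was 3.39 ± 0.57 in Spc against USg (edgeR adjusted p = 0.00230), 2.73 ± 0.55 in Spc against DSg (adjusted p = 0.00766) and 0.66 ± 0.53 in DSg against USg (adjusted p = 0.530). Without DSg 2, the call in Spc against DSg was lost (2.24, adjusted p = 0.0645), and without DSg 1 the value was 3.62. Without USg 1 the Spc against USg value was 4.24, and the DSg against USg value ran from -0.23 (without DSg 1) to 1.46 (without USg 1).

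**Figure D3:**
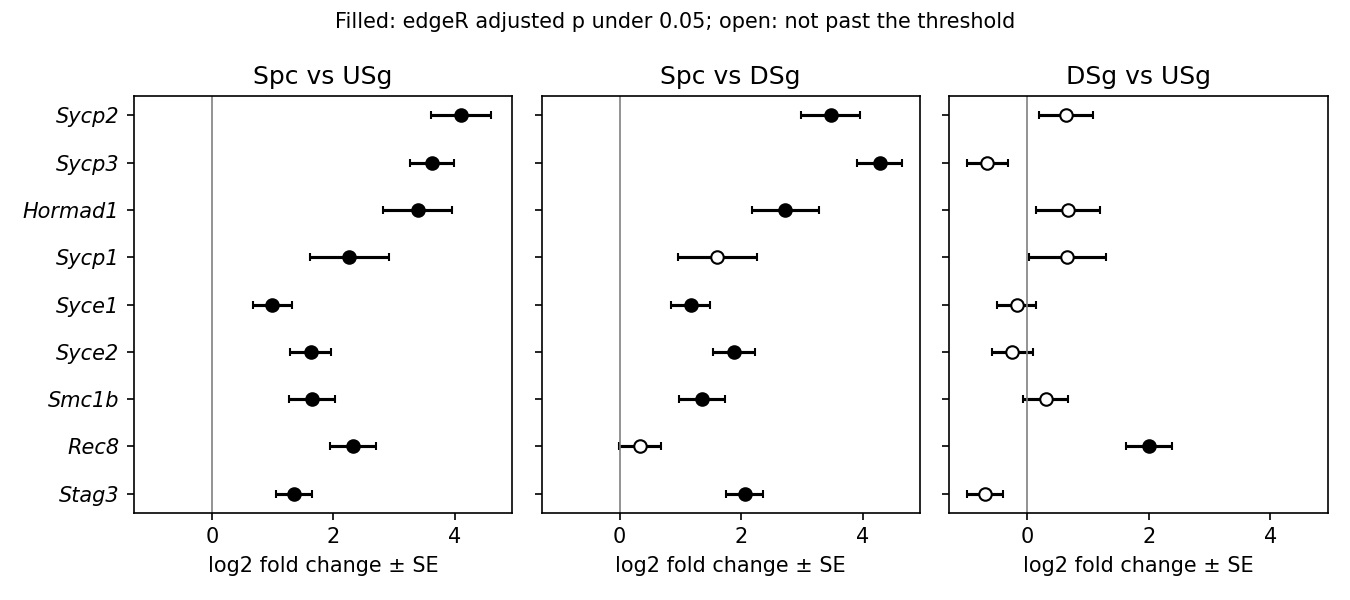
Log2 fold change ± SE of each of the 9 genes in 3 comparisons (filled: edgeR adjusted p under 0.05; open: not past it). All 9 points are filled in Spc against USg, 7 in Spc against DSg, and only Rec8 in DSg against USg.

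Sycp1, the transverse filament gene, had the widest gap of the 9 genes between the USg replicates. Its levels were 544 and 116 CPM in USg, 691 and 346 CPM in DSg, and 1399 and 1766 CPM in Spc. The line groups overlapped, and USg 1 lay above USg 2 by 2.23 on the log2 scale. In Spc against USg the log2 fold change was 2.27 ± 0.66 (edgeR adjusted p = 0.0272), and without USg 1 it was 3.73 and without USg 2 it was 1.56, both past the threshold. A fit of only the 4 libraries compared gave 2.25 and lost the call (adjusted p = 0.0507). In Spc against DSg it was 1.61 ± 0.64 and missed the threshold (adjusted p = 0.0953). The value passed in 8 of 18 alternative settings, among them the fit without USg 1 and DSg 1 together, which takes its spread from Spc alone. In DSg against USg it was 0.66 ± 0.63 (adjusted p = 0.607). Without USg 1 that value was 2.06 and passed (adjusted p = 0.0261), and without USg 2 it was -0.10 (adjusted p = 0.950).

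The replicate gap of Sycp1 was shared by other genes of the set. Sycp2 and Hormad1 were also higher in USg 1 than in USg 2 (log2 differences of 1.33 and 1.47, and 2.23 for Sycp1) and in DSg 1 than in DSg 2 (0.65 and 1.20, and 1.00 for Sycp1). USg 1 and DSg 1 were the libraries with the high ribosomal RNA share, and the part of that share in these gaps was not tested. In Spc, the largest gap between replicates among the 9 genes was 0.34, for Sycp1.

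The central element genes Syce1 and Syce2, whose proteins help lock SYCP1 into the zipper, differed less. Syce1 stood at 71.0 and 63.7 CPM in USg, 71.1 and 48.5 CPM in DSg, and 142 and 127 CPM in Spc. Its log2 fold change was 0.99 ± 0.32 in Spc against USg (edgeR adjusted p = 0.0402), 1.17 ± 0.32 in Spc against DSg (adjusted p = 0.0277) and -0.17 ± 0.32 in DSg against USg (adjusted p = 0.806). The Spc against USg call held in 13 of 18 alternative settings, the fewest of the 9 genes, with the fit without USg 1 and DSg 1 together among the 13. It was lost with no low-count filter (adjusted p = 0.0887) and when Spc 1 (adjusted p = 0.385), Spc 2 (0.256), USg 1 (0.0914) or USg 2 (0.126) was left out. The Spc against DSg call was lost without Spc 1 (adjusted p = 0.279), Spc 2 (0.175) or DSg 2 (0.126).

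Syce2 stood at 45.2 and 73.9 CPM in USg, 48.1 and 52.5 CPM in DSg, and 193 and 178 CPM in Spc. The 2 DSg libraries lay between the 2 USg libraries, and both Spc libraries lay above all of them. The log2 fold change was 1.63 ± 0.34 in Spc against USg (edgeR adjusted p = 0.00632), 1.88 ± 0.34 in Spc against DSg (adjusted p = 0.00503) and -0.25 ± 0.34 in DSg against USg (adjusted p = 0.726). Without Spc 1 the first of these calls was lost (1.56, adjusted p = 0.0664).

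Of the meiotic cohesin subunits, Rec8, the kleisin that closes the ring and is cleaved when sister chromatids part in meiosis, had a level in DSg near that in Spc. Its counts were 23 and 35 in USg, 68 and 118 in DSg, and 193 and 168 in Spc. Scaled levels were 8.88 and 6.23 CPM in USg, 27.5 and 31.8 CPM in DSg, and 38.0 and 36.6 CPM in Spc. The DSg libraries lay above both USg libraries, as 21.2% of all genes did, and below both Spc libraries. Rec8 rose in DSg against USg, with a log2 fold change of 2.00 ± 0.38 (edgeR adjusted p = 0.0364), and in Spc against USg, where the log2 fold change was 2.33 ± 0.38 (adjusted p = 0.00204). Between Spc and DSg it was 0.33 ± 0.35 and missed the threshold (adjusted p = 0.508), as it did in all 18 alternative settings, with values of 0.11 to 0.49.

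In DSg 2, where olfactory receptor counts were raised, the highest of the 1044 olfactory receptor genes had 7.27 CPM. That maximum was 5.34 (USg 2) to 18.7 CPM (Spc 2) in the other libraries, so it does not gauge the raised counts. The part of those raised counts in the level of Rec8 was not tested. The call in DSg against USg was lost without USg 2 (1.68, adjusted p = 0.0727), without DSg 1 (1.91, adjusted p = 0.120) and without DSg 2 (1.89, adjusted p = 0.198). It was also lost when only the 4 libraries compared were fitted (2.02, adjusted p = 0.119). Rec8 took 1.27% and 2.29% of the counts of the 9 genes in DSg, against 0.415% and 0.445% in USg, and 0.418% and 0.364% in Spc.

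Smc1b, the meiotic SMC subunit, stood at 414 and 237 CPM in USg, 486 and 315 CPM in DSg, and 910.1 and 1132 CPM in Spc. The line groups overlapped and both Spc libraries were higher. The log2 fold change was 1.65 ± 0.38 in Spc against USg (edgeR adjusted p = 0.0105), 1.35 ± 0.38 in Spc against DSg (adjusted p = 0.0291) and 0.30 ± 0.37 in DSg against USg (adjusted p = 0.70). The call against USg was lost without Spc 2 (adjusted p = 0.0578), and the call against DSg without Spc 1 (0.0569), Spc 2 (0.170) or DSg 2 (0.154).

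Stag3, the meiotic STAG subunit, stood at 637 and 536 CPM in USg, 397 and 322 CPM in DSg, and 1501 and 1492 CPM in Spc. Both DSg libraries were below both USg libraries, as 21.1% of all genes were, and the Spc libraries were above both groups. The log2 fold change was 2.06 ± 0.30 in Spc against DSg (edgeR adjusted p = 0.00202), 1.35 ± 0.30 in Spc against USg (adjusted p = 0.00851) and -0.71 ± 0.30 in DSg against USg (adjusted p = 0.242). The Spc against USg call was lost without Spc 1 (adjusted p = 0.0939) or Spc 2 (0.0875).

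The 2 steps of each gene, Spc against DSg and DSg against USg, share the DSg libraries, and the signed difference between them on the log2 scale (second minus first) was tested. A positive value means that the signed second step exceeded the signed first step, and does not say at which step a gene changed. Of the 9 genes, 2 had a positive difference past the threshold, where 4.22% of all genes did and 2.42% had a negative one: Sycp3 (4.94 ± 0.65, edgeR adjusted p = 0.00627) and Stag3 (2.76 ± 0.54, adjusted p = 0.0224). In both genes the first step was negative (-0.66 and -0.71) and adds to the value. Both calls were lost without DSg 1, where the value was 5.96 for Sycp3 (adjusted p = 0.0653) and 3.45 for Stag3 (0.0843), and without DSg 2, where it was 4.40 (0.0876) and 2.47 (0.142). Without Spc 2 the value for Stag3 was 2.87 (adjusted p = 0.0519). For Sycp2 the difference of steps was 2.85 ± 0.82 (adjusted p = 0.0734) and for Syce2 2.13 ± 0.61 (adjusted p = 0.0714). For Rec8 the difference was -1.67 ± 0.61 and did not pass (adjusted p = 0.136). The values of Hormad1, Syce1, Smc1b and Sycp1 lay between 0.95 and 2.06 and did not pass either.

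**Figure D4:**
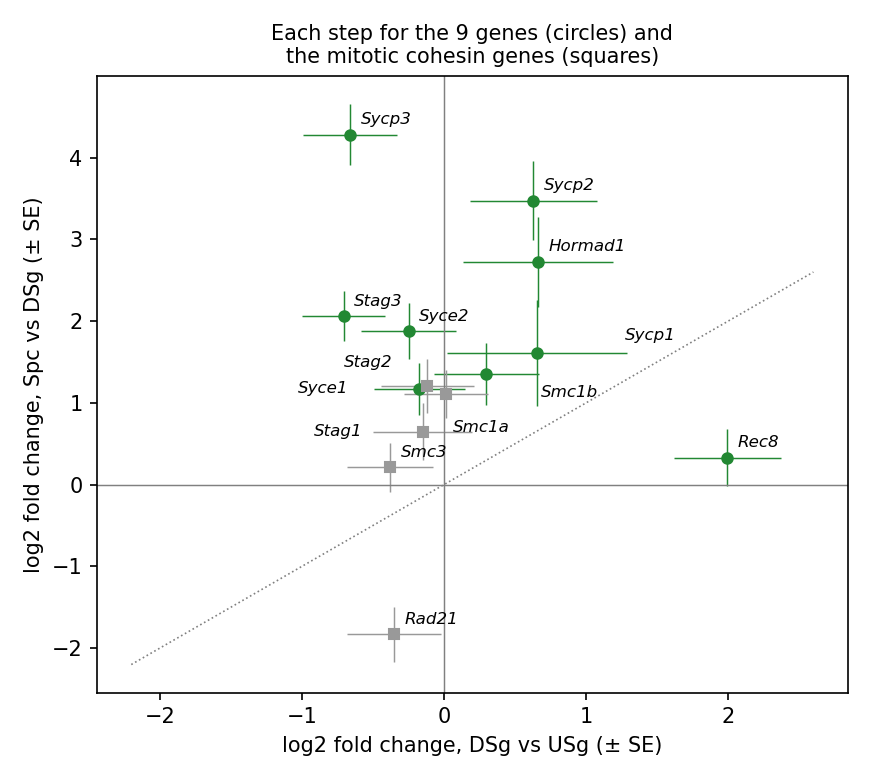
Log2 fold change of Spc against DSg (y axis) plotted against that of DSg against USg (x axis), ± SE, for the 9 genes (circles) and 5 mitotic cohesin genes (squares). The dotted line marks equal steps, and the 2 axes share the DSg libraries. Sycp3 and Stag3 lie at upper left, Rec8 lies below the dotted line at the right, and Rad21 lies low at -0.35 and -1.83.

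The mitotic counterparts were set beside the meiotic subunits. Rad21, the mitotic kleisin, stood at 1026 and 735 CPM in USg, 826 and 552 CPM in DSg, and 206 and 181 CPM in Spc. It fell in Spc against USg, where 16.6% of all genes were called lower (log2 fold change -2.18 ± 0.34, edgeR adjusted p = 0.00178) and against DSg, where 11.7% were (-1.83 ± 0.34, adjusted p = 0.00540), and the second call was lost without Spc 2 (-1.69, adjusted p = 0.0671). Smc1a, at 98.8 and 115 CPM in USg, 116 and 101 CPM in DSg and 211 and 256 CPM in Spc, was higher in Spc than in USg (1.12 ± 0.30, adjusted p = 0.0184). Stag2, at 147 and 112 CPM in USg, 142 and 96.7 CPM in DSg and 246 and 303 CPM in Spc, was likewise higher (1.09 ± 0.33, adjusted p = 0.0316). Smc1a and Stag2 were also called higher in Spc than in DSg (1.11, adjusted p = 0.0245, and 1.21, adjusted p = 0.0268). Neither gene kept its call against USg or DSg when Spc 1 or Spc 2 was left out (adjusted p of 0.123 to 0.331). Calls were also lost without USg 1 (Smc1a against USg, 0.0833), USg 2 (Stag2 against USg, 0.131), DSg 1 (Smc1a against DSg, 0.0521) and DSg 2 (Smc1a and Stag2 against DSg, 0.107 and 0.132).

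Smc3, the subunit that mitotic and meiotic rings have in common, had log2 fold changes of -0.17 ± 0.30 in Spc against USg (edgeR adjusted p = 0.697) and 0.21 ± 0.30 in Spc against DSg (adjusted p = 0.633). Stag1 had 0.50 ± 0.35 (adjusted p = 0.296) and 0.64 ± 0.35 (adjusted p = 0.201). In DSg against USg the 5 mitotic genes lay between -0.38 and 0.02, and the value furthest from 0 was that of Smc3 (-0.38 ± 0.30, adjusted p = 0.531).

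The ratio of a meiotic subunit to its mitotic counterpart within a library does not depend on scaling between libraries, but it compares read counts of transcripts of unequal length, so only its change between groups is read here. Rec8 to Rad21 stood at 0.00865 and 0.00849 in USg, 0.0333 and 0.0576 in DSg, and 0.185 and 0.202 in Spc. The 3 groups did not overlap, with USg lowest and Spc highest. On the log2 scale the ratio was -2.37 ± 0.09 in Spc, -4.51 ± 0.56 in DSg and -6.87 ± 0.02 in USg (mean ± SD, n = 2). The difference was 4.49 (22.5-fold) in Spc against USg, 2.14 (4.41-fold) in Spc against DSg and 2.35 (5.11-fold) in DSg against USg. With 2 libraries against 2, each had an exact two-sided permutation p of 0.3333, the smallest this design can give.

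Stag3 to the sum of Stag1 and Stag2 was 1.48 and 1.92 in USg, 1.04 and 1.23 in DSg, and 2.69 and 2.39 in Spc. The groups did not overlap, with DSg lowest and Spc highest. The log2 difference was 1.16 in Spc against DSg, 0.59 in Spc against USg and -0.58 in DSg against USg (exact permutation p = 0.3333 for each). Smc1b to Smc1a was 4.20 and 2.06 in USg, 4.19 and 3.13 in DSg, and 4.32 and 4.42 in Spc. Its highest line values, in USg 1 and DSg 1, lay just under those of Spc, and the log2 difference was 0.57 in Spc against USg and 0.27 in Spc against DSg.

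**Figure D5:**
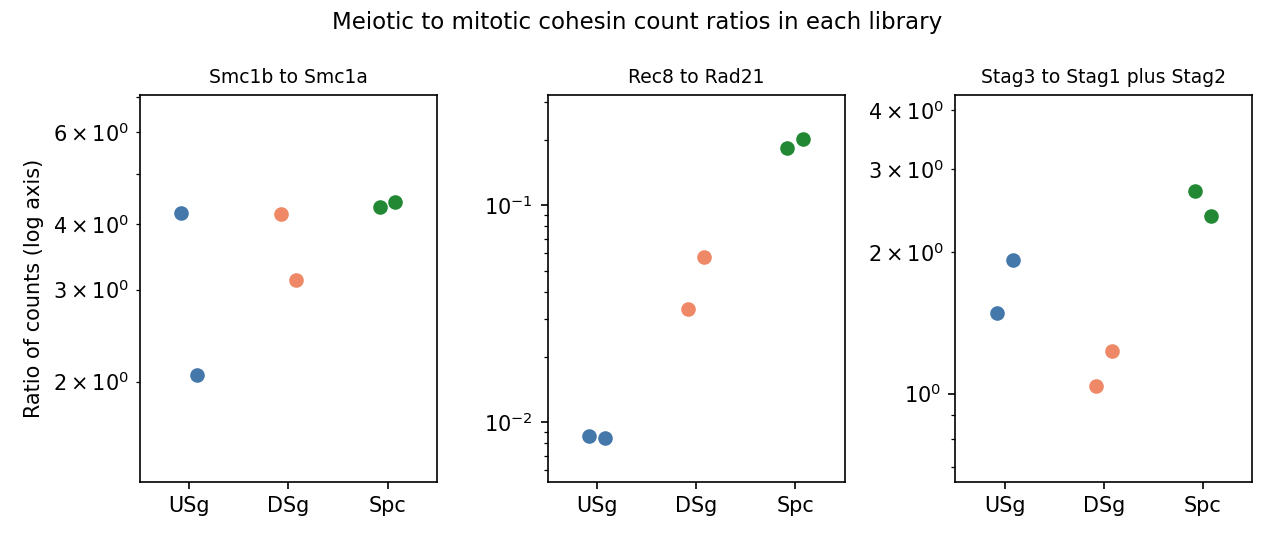
Ratio of counts of a meiotic to a mitotic cohesin subunit in each library (log axis, points for the 2 libraries of USg, DSg and Spc). Rec8 to Rad21 is higher in DSg than in USg and higher again in Spc, Stag3 to Stag1 plus Stag2 is lowest in DSg, and Smc1b to Smc1a overlaps between DSg and USg.

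Other genes of the same structures did not all follow the 9, and their calls stand beside the shares over all genes. Those shares were 17.9% higher and 16.6% lower in Spc against USg, and 14.8% higher and 11.7% lower in Spc against DSg. Of 5 further synaptonemal complex genes tested, Hspa2, a chaperone of spermatocytes found on the complex, was higher in Spc, with 1545 and 1353 CPM against 80.8 and 67.6 CPM in DSg and 62.1 and 155 CPM in USg (log2 fold change 4.29 ± 0.47 against DSg and 3.73 ± 0.46 against USg, edgeR adjusted p = 5.53e-04 and 6.07e-04). Fkbp6 was lower in Spc than in USg (-0.98 ± 0.33, adjusted p = 0.0455), a call lost with no filter (adjusted p = 0.0751), in a fit of the 4 libraries compared (0.0588) and without any one library except USg 1 (0.0633 to 0.339). The central element genes Syce3 and Tex12 and the gene Skp1 missed the threshold in all 3 comparisons, with unadjusted p-values of 0.186 or above. Syce3 had 29.0 and 28.1 CPM in Spc, 37.2 and 20.7 CPM in DSg and 17.0 and 28.3 CPM in USg, and Tex12 had 39.2 and 35.9 CPM in Spc, 34.8 and 17.8 CPM in DSg and 44.0 and 29.2 CPM in USg. The Spc and USg libraries of both genes overlapped. Those of Syce1 and Syce2 did not, a separation with Spc higher that 37.1% of all genes showed. Both Spc libraries of Tex12 lay above both DSg libraries, as 36.6% of all genes did. The difference between these genes was not tested.

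Of 4 further axis genes, Trip13, the ATPase that strips HORMAD proteins from paired axes, was lower in Spc, as 16.6% of all genes were against USg and 11.7% against DSg. It had 24.6 and 13.9 CPM in Spc, 105 and 62.7 CPM in DSg and 79.1 and 64.1 CPM in USg (log2 fold change -2.11 ± 0.42 against DSg and -1.89 ± 0.41 against USg, edgeR adjusted p = 0.00711 and 0.00839). Without Spc 2 neither call was made (adjusted p of 0.0943 and 0.126), nor was that against DSg without DSg 1 (0.0630). Mei4 and Rec114, which act in double-strand break formation on the axis, gave 1 call each: Mei4 was lower in Spc than in DSg (-1.72 ± 0.46, adjusted p = 0.0244) and Rec114 lower in Spc than in USg (-1.47 ± 0.49, adjusted p = 0.0457). The Mei4 call was lost without either DSg or either Spc library (log2 fold changes of -1.80 to -1.52). The Rec114 call was lost without any one library except USg 1 (-1.62 to -0.49). It was also lost in a fit of the 4 libraries compared (edgeR adjusted p = 0.0685) and by limma-voom (adjusted p = 0.0575). Hormad2, the relative of Hormad1, had 80.8 and 74.9 CPM in Spc, 79.2 and 37.4 CPM in DSg and 119 and 44.7 CPM in USg and passed in neither Spc comparison (adjusted p = 0.566 against DSg and 0.940 against USg).

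Of 2 telomere attachment genes tested, Spdya, a CDK2 activator at meiotic telomeres in mouse, was higher in Spc, at 359.7 and 396 CPM against 39.2 and 35.0 CPM in DSg and 25.9 and 11.8 CPM in USg (log2 fold change 3.35 ± 0.41 against DSg and 4.36 ± 0.44 against USg, edgeR adjusted p = 8.92e-04 and 2.75e-04). Sun1, the nuclear envelope partner, had 0.60 ± 0.29 against DSg and 0.23 ± 0.29 against USg (adjusted p = 0.157 and 0.572). Of 8 tested genes for loading, release and protection of cohesin, Mau2, part of the cohesin loader, was higher in Spc than in USg (1.30 ± 0.34, adjusted p = 0.0173) and DSg (1.21 ± 0.33, adjusted p = 0.0283). Cdca5, whose protein sororin stabilises cohesin on DNA, was higher in Spc than in USg (1.05 ± 0.35, adjusted p = 0.0476). That makes 2 of 8 genes called higher against USg and 1 of 8 against DSg, beside 17.9% and 14.8% of all genes. These Mau2 calls were lost without Spc 1 or Spc 2 (adjusted p of 0.123 to 0.185), without USg 1 (0.0691) or without DSg 1 (0.0942), and that against DSg also when libraries were scaled by total count (0.0841) or upper quartile (0.0616). The Cdca5 call was lost without any one library except USg 2 (0.0610 to 0.298) and in 7 other settings: no filter (0.0908), total-count scaling (0.0750), upper quartile scaling (0.0586), the 4 libraries compared (0.0581), DESeq2 (0.0568), thinned counts (0.0567) and no ribosomal RNA genes (0.0501). Genes such as Six6os1, Terb1, Terb2, Majin and Nipbl were not matched by symbol to a row of counts, so they were not tested.

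By the distance between profiles over the 6 libraries, the genes nearest to the mean of the 9 were Tes, Axl, Ssmem1, Maoa and Vcl. The distance was the root mean square difference of log2(CPM + 1), centred for each gene, and for these 5 of 8642 genes it ran from 0.08 to 0.15. Among the 9 genes themselves it was 0.36 for Smc1b, the nearest to the mean, and 0.93 for Sycp3, 0.82 for Rec8 and 0.79 for Sycp2, the furthest. The genes nearest to Rec8 were Dbt, Ago3 and Tfcp2l1 (0.09 to 0.15). Those nearest to Sycp2 were Ccdc42, Spdya and Arl4c, and those nearest to Sycp3 were Des, S100a11 and Plat. Des is also in the list of peritubular myoid markers. With only 6 libraries in 3 groups, nearness is a description of these levels only, and how many genes share a profile was not counted. The nearest genes were picked for the smallest distances among 8642, so their distances cannot be set against those of the 9 genes.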

How the data were processed

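The deposited values are raw read counts per gene symbol for 6 RNA libraries, which the authors did not normalize, as their whole numbers and unequal totals show. Per the submitters' processing notes, STAR 2.5.3a, Subread 1.4.6, featureCounts and edgeR 3.2.4 were among the tools and rn6 and rn5 the builds. No source used here gives the role of each or the strand setting, so genes that overlap on opposite strands cannot be told apart. The 2 anti-Foxa2 chromatin immunoprecipitation samples were not analysed here.

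Counts were scaled by TMM and filtered with filterByExpr (minimum count 10, minimum total 15), and 1 quasi-likelihood fit of all 6 libraries was made with edgeR 4.0.16 in R 4.3.3, with 3 residual degrees of freedom. Tests were two-sided and p-values were adjusted by Benjamini-Hochberg over 12210 genes, with a threshold of 0.05. Each SE was the size of the log2 fold change divided by the root of its F statistic. Levels are CPM on TMM-scaled totals. The script was tested on simulated data. Replicates differed beyond sampling noise and were kept apart. Other settings tried were scaling by total count, upper quartile or RLE, a 5 CPM filter or no filter, limma-voom (limma 3.58.1), DESeq2 1.42.0, a fit of the 4 libraries compared, the replicate number as a block, 1 library left out, USg 1 and DSg 1 left out together, ribosomal RNA genes left out, and thinned counts. Named genes were the 9 genes, the 5 mitotic cohesin genes, and up to 4 genes past the threshold with at least 5 CPM in each further list. Syce3, Tex12, Skp1, Hormad2 and Sun1 were named outside that rule, after their values were seen. For likeness, genes with at least 20 CPM in 1 group were used. The genes and lists were chosen with earlier results of these data known.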

Additional observations from a re-analysis of the deposited data

How the results depend on the processing

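None of the 9 genes changed sign in a called comparison under any setting run. The number called higher was 9 in Spc against USg (8 or 9 across settings with all libraries and 6 to 9 with 1 library left out). It was 7 in Spc against DSg (7 or 8, and 4 to 8 with 1 library left out, the lowest without DSg 2) and 1 in DSg against USg, with 0 to 2 when 1 library was left out. The fit of only the 4 libraries compared gave 0 in DSg against USg, which has fewer samples, and without USg 1 and DSg 1 together 4 were higher (Sycp1, Sycp2, Hormad1 and Rec8) and 3 lower (Sycp3, Syce2 and Stag3). That fit takes its spread from Spc alone, so its calls are not counted here. For the signed difference of steps, 2 were positive, against 4 with no filter and 4 with DESeq2. With 1 library left out, the difference ran from 4.40 to 5.96 for Sycp3 and from 2.47 to 3.45 for Stag3. Without USg 1 and DSg 1 together, it was 3.03 for Sycp2, 2.58 for Syce2 and -1.85 for Rec8. Without those 2 libraries, Hormad2 (0.77) and Esco1 (0.56) had the opposite sign in Spc against USg. The causes were not tested.

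With the replicate number as a block, 9, 8 and 1 genes were called higher in Spc against USg, Spc against DSg and DSg against USg, and 4 for the difference of steps. The deviations of same-numbered libraries correlated at 0.29 (USg and DSg), -0.29 (USg and Spc) and -0.01 (DSg and Spc). The numbers were not taken to pair libraries, since a shared number is not said to mark a shared culture or day. Upper quartile scaling moved the median of all genes by 0.15 in DSg against USg, by -0.22 in Spc against DSg and by -0.37 for the difference of steps. Where 1 library of a group was left out, the other was assumed to vary like the remaining groups. The ratio per coding length was not run. Rec8 had 23 to 118 counts per line library, the fewest of the 9 genes.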
